A study of Mus musculus with 10 samples.

Results

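The 7 genes described here in F123 mouse embryonic stem cells (mESCs) encode transcription factors linked to the formative and primed states of pluripotency: Otx2, Pou3f1, Zic2, Zic5, Sall2, Sox4 and Grhl2. They were chosen by name, with earlier results of these data known. They are 7 of the 21938 protein-coding genes of the GENCODE annotation of mm10, and all 7 were found there under that symbol. The study mapped long-range chromatin contacts by PLAC-seq in these cells, and 10 samples are labelled, of which the ATAC-seq and H3K4me3 ChIP-seq samples (2 biological replicates each) are used here through 1 peak list per assay. F123 is an F1 line from a cross of Mus musculus castaneus with S129/SvJae, unmodified and untreated. It was grown with knockout serum replacement and LIF on irradiated CF1 mouse embryonic fibroblasts and passaged off the feeders onto gelatin before harvest.

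Embryonic stem cells that leave the naive state pass through a formative state, in which they become able to respond to signals for the germ layers and the germ line, and then reach the primed state of the epiblast before gastrulation. Otx2 and Pou3f1 act at enhancers that open during this exit. H3K4me3, the trimethyl mark on lysine 4 of histone H3, sits at active promoters and, together with H3K27me3, at the promoters of many developmental regulators that are silent in stem cells. ATAC-seq marks DNA that the Tn5 transposase can reach. A distal enhancer is called poised from H3K4me1 and H3K27me3 without H3K27ac, none of which was analysed here, so the distal sites below are open sites and no state is assigned to them.

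The H3K4me3 list held 33487 peaks with a median width of 1135 bp and a median fold enrichment of 8.93 over the background of the peak caller. The ATAC list held 179109 peaks with a median width of 261 bp and positions only. Both lists pool their 2 replicates and carry no read counts, so depth is unknown, no value has a replicate error, and no test between genes was run. A percentile below is the percentage of coding genes with a marked start that have a lower value, unless another set is named. Of the control lists, all 3 core pluripotency genes (Pou5f1, Sox2 and Nanog) and 8 of 9 naive genes had H3K4me3 at the start. Esrrb was the naive gene without a peak there. The share over all coding genes was 65.2%. Of 9 fibroblast markers, 6 had such a peak, near that share, with folds of 7.35 to 20.4. The fibroblast genes Col3a1, Fap and Postn had none. The part of feeder cells in the values of the 7 genes was not tested.

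Promoter sequences from RefSeq (GRCm38.p6, the same build as mm10) were at hand for 4 of the 7 genes, namely Otx2, Zic5, Sall2 and Sox4. They are shown because Otx2 and Sall2 each had more than 1 marked start, and because the Sall2 starts differ in CpG content. All sequences here and below are those of the mouse reference strain. The alleles of F123 cells may differ and were not examined. Each line runs 5′ to 3′ on the strand of the gene, which is the minus strand for all 5, ends at the start or at the nearest annotated exon before it, and has CG dinucleotides in capitals.
Sall2, upstream start, chr14:52328763-52328920: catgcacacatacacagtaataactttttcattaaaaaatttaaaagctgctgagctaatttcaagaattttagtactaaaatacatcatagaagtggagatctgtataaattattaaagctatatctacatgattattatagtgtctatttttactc
Sall2, downstream start, chr14:52316324-52316573: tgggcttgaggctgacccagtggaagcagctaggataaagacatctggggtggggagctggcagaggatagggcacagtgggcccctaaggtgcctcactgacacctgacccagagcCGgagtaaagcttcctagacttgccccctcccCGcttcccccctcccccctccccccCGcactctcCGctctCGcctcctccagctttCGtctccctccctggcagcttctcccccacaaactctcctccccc
Otx2, internal start, chr14:48667645-48667894: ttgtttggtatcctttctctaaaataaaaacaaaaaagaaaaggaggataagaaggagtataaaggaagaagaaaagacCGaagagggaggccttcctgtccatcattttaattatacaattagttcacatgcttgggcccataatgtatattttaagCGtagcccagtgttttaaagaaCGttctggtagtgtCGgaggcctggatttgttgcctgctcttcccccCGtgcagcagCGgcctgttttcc
Zic5, chr14:122465678-122465908: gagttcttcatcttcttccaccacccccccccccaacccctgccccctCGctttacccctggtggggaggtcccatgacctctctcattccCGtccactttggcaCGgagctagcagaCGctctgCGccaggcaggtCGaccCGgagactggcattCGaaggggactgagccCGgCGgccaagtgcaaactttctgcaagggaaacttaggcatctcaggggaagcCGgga
Sox4, chr13:28953714-28953949: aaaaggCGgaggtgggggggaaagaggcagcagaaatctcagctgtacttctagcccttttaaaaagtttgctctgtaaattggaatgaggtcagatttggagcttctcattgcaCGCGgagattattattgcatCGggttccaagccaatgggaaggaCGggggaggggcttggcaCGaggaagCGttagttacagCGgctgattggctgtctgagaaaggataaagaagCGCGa

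Over the full RefSeq window, from 250 bases before to 50 after the start, the upstream Sall2 promoter held 1 CpG and 30.3% G and C bases, and its CpG count was above that of 4.4% of the 20150 windows of coding genes. The downstream Sall2 promoter held 10 CpGs and 65% G and C. The median window held 14 CpGs and 57% G and C. Zic5 had 15 CpGs, Sox4 had 12, and the 4 Otx2 windows had 6 to 16. All 8 windows lay wholly under H3K4me3 peaks, as did 56.9% of all windows. ATAC peaks covered all 300 bases at Sox4 and at the downstream Sall2 start, 263 at Zic5 and 0 at the upstream Sall2 start. In the 4 Otx2 windows they covered 0, 0, 100 and 169 bases, with 0 in the window shown. Of all windows, 31.7% had no base under an ATAC peak. Motif letters were searched on both strands. TATAAA occurred in the upstream Sall2 window and in the Otx2 window shown, and in 12.1% of all windows. GGGNGTGG, the core of KLF sites, occurred in the Zic5 window and in that of the most 3′ Otx2 start, against 19.9% of all windows. TAATCC, the OTX core, occurred in 1 Otx2 window, against 6.44%. The octamer ATGCAAAT, the SOX core CTTTGT, the GRHL core AACNGGTT and the ESRRB site TCAAGGTCA were in none of the 8 windows, against 1.55%, 16.7%, 1.98% and 0.337% of all windows.

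All 7 genes had an H3K4me3 peak and an ATAC peak within 1000 bp of the start. Over all coding genes, 65.2% had such an H3K4me3 peak and 71% such an ATAC peak. The start base itself lay under H3K4me3 at all 7 genes and under an ATAC peak at 5 of them, against 61.1% and 62.5% of all coding genes. At Pou3f1 and Sall2 the nearest ATAC peak began inside the gene. The promoters then fell into several forms, set out by width (the domain), by fragmentation (the number of peaks in it) and by strength (the fold of its strongest peak). A promoter domain is the run of H3K4me3 peaks that are at most 1000 bp apart and include a peak within 1000 bp of the start.

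**Figure D1:**
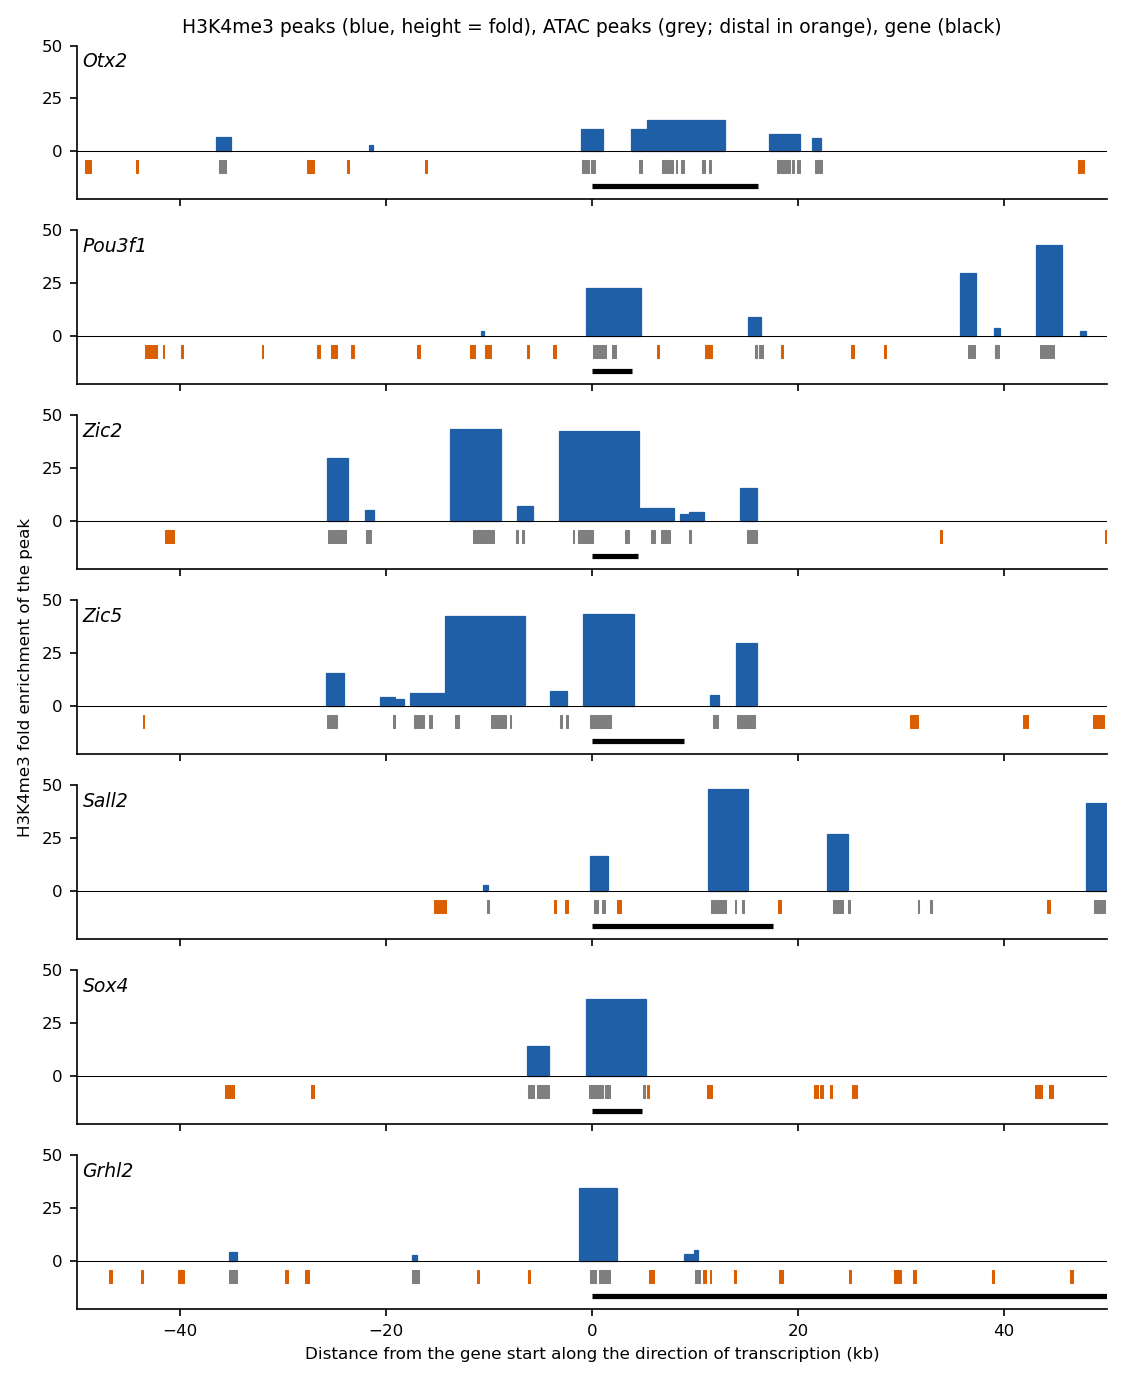
H3K4me3 and ATAC peaks around the 7 gene starts. The x axis is the distance from the start in kb along the direction of transcription and the y axis the H3K4me3 fold enrichment of each peak (blue blocks drawn to width). Bars under the axis are ATAC peaks, orange where distal and grey elsewhere, and the black line is the gene. The Zic2 and Zic5 panels show the same cluster from either end, and the strongest block in the Sall2 panel stands 11259 to 15122 bp inside the gene.

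Broad domains, of 5000 bp or more, were found at 3 of the 7 genes, Pou3f1, Sox4 and Zic2, against 6.27% of marked coding genes. Pou3f1 encodes a POU-domain factor (OCT6) of the epiblast and of nerve and glial cells. Its start lay under a single H3K4me3 peak of 5413 bp (chr4:124656171-124661583) with a fold enrichment of 22.9. That width was at percentile 95.2 and the fold at percentile 30, so the peak was wide and of less than median strength. Sox4 encodes an HMG-box factor of progenitor cells. It had a single peak of 5916 bp (chr13:28948443-28954358) with a fold of 36.7, at percentiles 96.4 and 66.1. Both genes are short, at 3849 and 4795 bp, and both lay entirely under the peak.

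Zic2 encodes a zinc-finger factor that binds enhancers in epiblast cells and acts in forebrain development. Its domain was the widest of the 7 at 14078 bp (chr14:122472204-122486281), at percentile 99.9, and was the only one at the start of a gene record made of several peaks. Domains of 2 or more peaks made up 15.3% of all marked coding genes and 1 of the 7 here. The strongest of its 4 peaks was 7804 bp wide with a fold of 42.7 and covered the whole gene. The other 3 followed downstream, past the end of the gene, with gaps of 54, 604 and 129 bp. They had folds of 6.3, 3.44 and 4.5. The fragmented form thus came from weak peaks behind the gene, and the strongest peak alone was wider than 99.9% of all H3K4me3 peaks. The width-weighted mean fold of the domain was 27.3.

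Genes covered over at least 90% of their length by H3K4me3 were also Pou3f1, Zic2 and Sox4, 3 of 7 against 2.92% of marked coding genes. These 3 genes are 3849, 4418 and 4795 bp long, and the share is over marked genes of all lengths. The measure was chosen after the peaks were seen. Coverage was 62.6% at Otx2, 45.3% at Zic5, 30.7% at Sall2 and 3.32% at Grhl2, which is 130534 bp long.

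Zic5, another zinc-finger gene of the same family, starts 9758 bp from Zic2 and is read in the other direction. Its peak was 4930 bp wide (chr14:122461654-122466583), just under the 5000 bp limit, at percentile 93.5, with the highest fold at the gene-record starts of the 7 at 43.4 and percentile 81.7. A single ATAC peak of 2012 bp covered its start and was wider than 99.9% of all ATAC peaks. The ATAC peak at the Zic2 start was 1516 bp. Between both starts lay another H3K4me3 peak of 1616 bp and fold 7.13 that overlapped 2 ATAC peaks and no annotated gene. Within 50 kb of Zic2 there were 9 H3K4me3 peaks in all, covering 24513 bp. They included the starts of the neighbours Gm5089 (fold 30.1) and Gm10837 (fold 15.7). The noncoding 2610035F20Rik starts 236 bp upstream of Zic2 on the other strand, within the same peak.

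Grhl2 encodes a grainyhead-like factor that opens enhancers of epithelial genes. Its start had a single peak of 3673 bp (chr15:37231759-37235431) with a fold of 34.5, at percentiles 84 and 60.5, and 2 ATAC peaks of 663 and 1005 bp. The antisense transcripts of Gm16136 start 105 to 273 bp inside Grhl2, under the same peak. The start of a gene record that is not protein-coding lay in the promoter domain at 4 of the 7 genes (Otx2, Pou3f1, Zic2 and Grhl2). The share was 14.8% of marked coding genes, and this measure was also chosen after the peaks were seen. At Otx2 the record was Gm49154, which starts 80 bp upstream. The share was not matched for domain width, whose median was 4930 bp at the 7 genes and 2290 bp over all marked coding genes.

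Otx2 and Sall2 had the narrowest and weakest peaks at the start of the gene record. Otx2, a homeobox gene of the epiblast and of the anterior brain, had a peak of 2145 bp (chr14:48672798-48674942) with a fold of 10.7, at percentiles 44.2 and 9.52. Sall2, which encodes a zinc-finger factor of the Spalt family, had a peak of 1776 bp (chr14:52327232-52329007) with a fold of 16.5, at percentiles 29 and 17.8. Both widths were below the median of all marked coding genes, 2290 bp, and both folds below their median of 30.8. The other 5 genes were all above that median width.

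**Figure D2:**
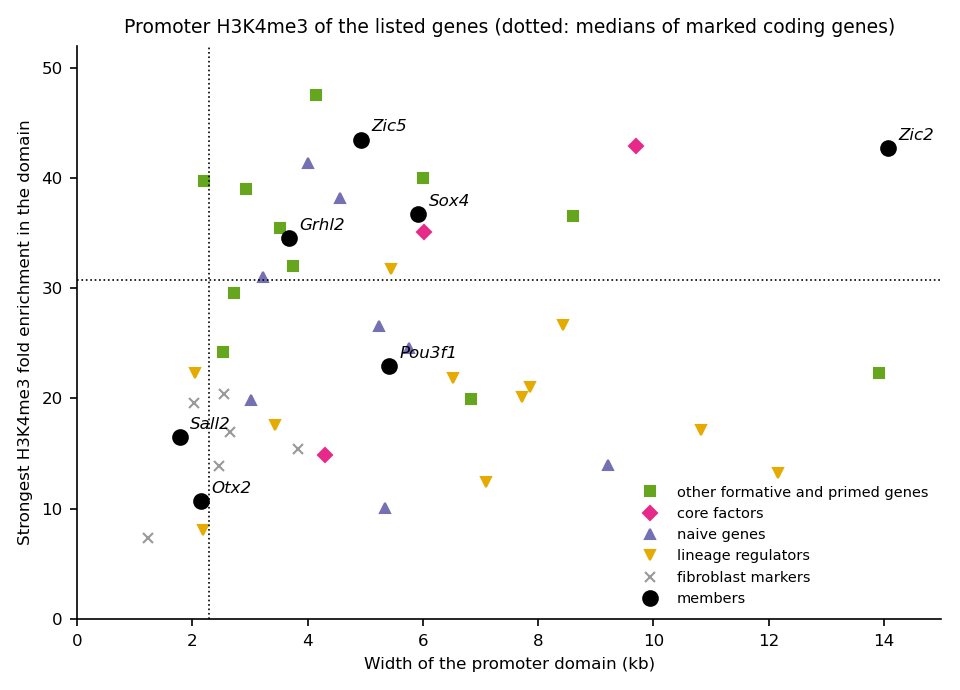
Width of the promoter domain in kb (x axis) against the fold enrichment of its strongest H3K4me3 peak (y axis) for the 7 genes (black, named) and for the marked genes of 5 comparison lists. Each point is 1 gene, and dotted lines give the medians of all marked coding genes, 2290 bp and 30.8-fold. Otx2 and Sall2 sit below both medians, and Zic2 lies farthest right at 14078 bp.

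In both genes another coding start, inside the gene record, had more H3K4me3 than the outermost one. Separate marked domains at 2 or more coding starts were found at Otx2 and Sall2 and at 5.09% of all coding genes. The measure was chosen after the peaks were seen. At Sall2 the other coding transcript starts 12439 bp downstream. It lay under a peak of 3864 bp (chr14:52313640-52317503) with a fold of 48.1, stronger than 95.7% of all H3K4me3 peaks and against 16.5 at the upstream start. The peak overlapped 4 ATAC peaks, the widest of 1176 bp, against 415 bp for the widest at the upstream start. The region of 9728 bp between both peaks held no H3K4me3. The strong peak thus lay at the GC-rich of the Sall2 promoters shown above, and the weak one at the AT-rich one.

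At Otx2 all other coding starts lay 6175 to 10947 bp inside the gene record, in a domain of 9195 bp formed by 2 peaks 111 bp apart. The wider of them (chr14:48660888-48668450) was 7563 bp, held 6 ATAC peaks and had a fold of 14.8. That peak was wider than 99.9% of all H3K4me3 peaks but stronger than 60% of them. The second peak, of 1521 bp and fold 10.7, held starts of the noncoding Otx2os1, which runs in the other direction. A gap of 2715 bp without H3K4me3 separated the domain from the peak at the outermost start. With the starts of all coding transcripts, the widest domain of Otx2 was at percentile 99.2 for width and 15.4 for fold, and that of Sall2 at 85.8 and 89.2, both among the coding genes marked at any coding start. Otx2 was thus wide and weak at its internal starts, and Sall2 was strong and of more moderate width.

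**Figure D3:**
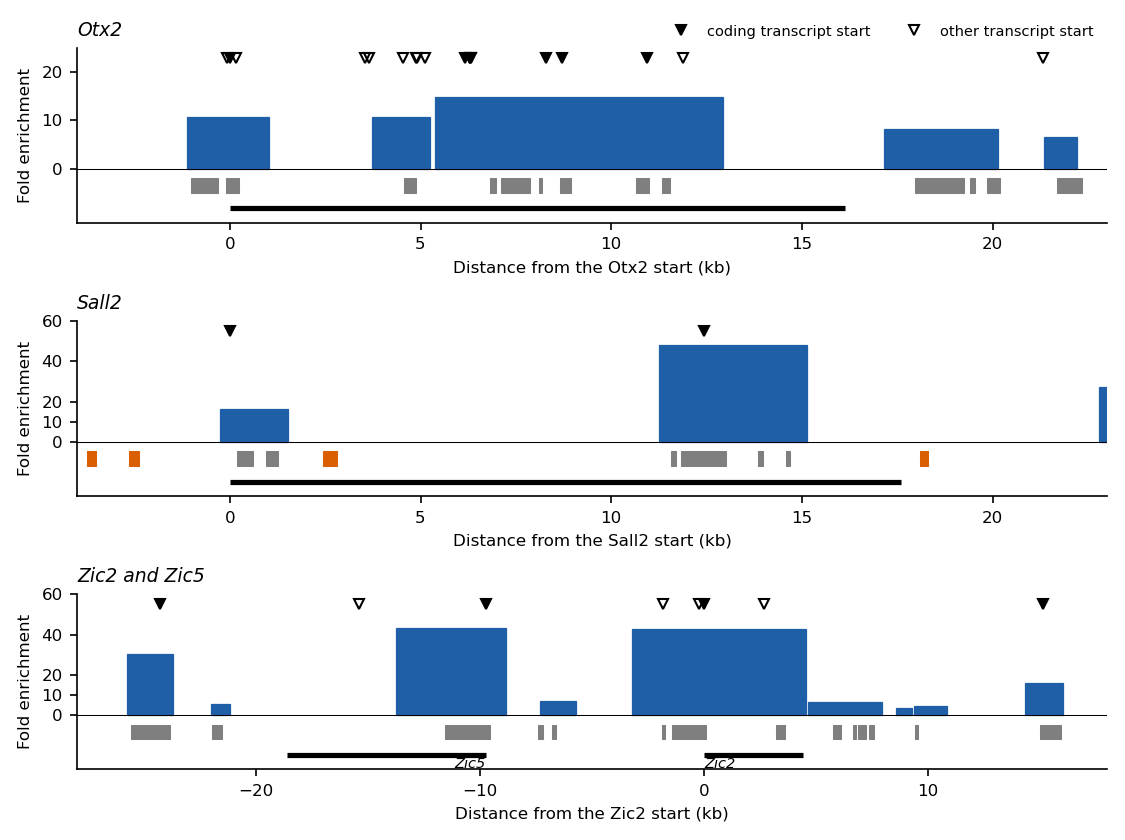
H3K4me3 peaks (blue, height gives the fold enrichment) and ATAC peaks (bars under the axis) at Otx2, Sall2 and the Zic2 and Zic5 pair, against the distance from the start in kb. Filled triangles mark coding transcript starts, open ones other transcript starts, and black lines the member genes. Most Otx2 coding starts lie under the 7563 bp peak, and the downstream Sall2 start lies under the peak of fold 48.1.

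Summits of the strongest H3K4me3 peak lay downstream of the start at 6 of the 7 genes, against 85% of marked coding genes, from 184 bp (Zic2) to 1017 bp (Grhl2) past the start. At Otx2 the summit was 405 bp upstream. The domains also reached farther downstream of the start than upstream at these 6 genes, against 81.8% of marked coding genes, for example 5270 bp against 645 bp at Sox4, while at Otx2 the peak reached 1021 bp inside and 1123 bp outside. The −log10 q values put the 7 genes in the same order as the folds, from 108 at Otx2 and 124 at Sall2 to 629 at Zic5.

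The median domain width of the 7 genes was 4930 bp, at a median percentile of 93.5, and their median fold was 34.5, at a median percentile of 60.5. The width-weighted mean fold put them below the middle, with a median of 27.3 against 29.9 over all marked genes (percentile 43.1), and so did −log10 q (percentile 47). Of 12 other formative and primed genes, 11 were marked, with a median width of 3753 bp and a median fold of 35.5. The narrowest of these was Tead2 (2206 bp) and the widest Foxd3 (13912 bp, in 6 peaks), a forkhead gene of the epiblast. The core genes had a median width of 6027 bp, from Nanog (4301 bp) to Sox2 (9701 bp). Of 9 naive genes, 8 were marked, with medians of 4900 bp and 25.6-fold, from Nr0b1 (3015 bp) to Tbx3 (9217 bp). Esrrb had no peak at its outermost start but had marked domains at other coding starts. Lineage regulators were marked in 11 of 12 cases, all but Gata4, which had a marked domain at another coding start, with the widest median (7092 bp) and a fold of 20.1, from Mixl1 (2039 bp) to Pax6 (12162 bp). The marked fibroblast genes had medians of 2508.5 bp and 16.2-fold, from Pdgfrb (1233 bp) to Prrx1 (3826 bp). The lists are small and no difference between them was tested.

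By width, fold, number of peaks and distal ATAC peaks together, compared as the Euclidean distance of the 4 percentile ranks among 14295 marked genes, the genes most like Pou3f1 were Kif26a, Pdpn, Zfp42, Nrp2 and Epha4, at distances of 3.16 to 5.13. Those most like Sox4 were Fzd2, Mrps18b, Ppp1r10, Hhex and Mynn, at 0.795 to 5.72. Mrps18b and Ppp1r10 have the same domain of 5955 bp.

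Open sites away from coding starts numbered from 2 to 17 per gene. A distal ATAC peak here lay over 1000 bp from every coding start, overlapped no H3K4me3 peak and had its centre within 50 kb of the member's start. Sites near noncoding starts were not excluded. Pou3f1 and Grhl2 had 17 each, Sox4 11, Sall2 8, Otx2 7, Zic5 5 and Zic2 2. The median of the 7 was 8, against 7 over all coding genes. Of all coding genes, 96.9% had fewer than Pou3f1 and Grhl2, and 7.61% fewer than Zic2. ATAC peaks in the window that overlapped H3K4me3, and so were not distal, numbered 14 each at Zic2, Zic5 and Otx2. They numbered 10 at Sall2, 8 at Pou3f1 and 5 each at Sox4 and Grhl2. Counting each site once, there were 65 distal ATAC peaks with a median width of 266 bp, against 231 bp for all 137437 such peaks.

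**Figure D4:**
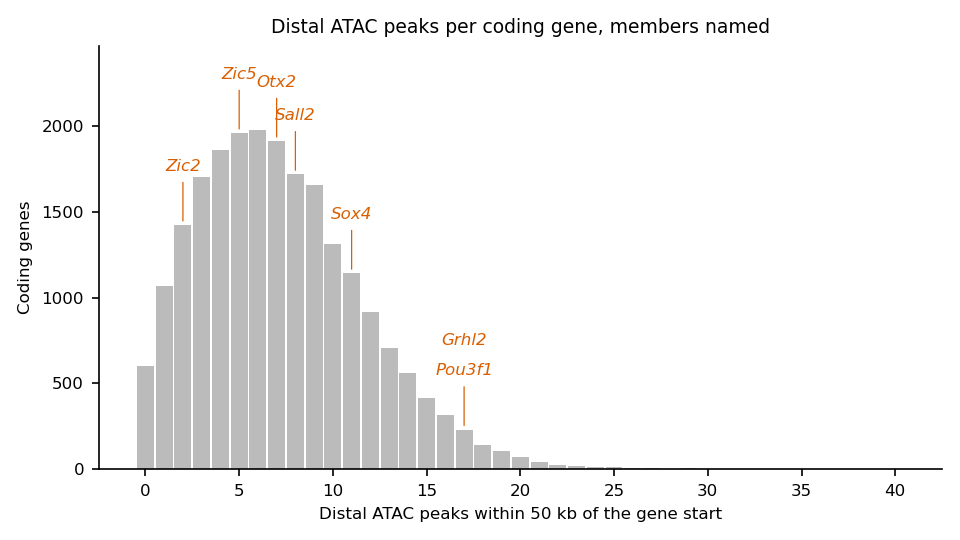
Number of coding genes (y axis) by the number of distal ATAC peaks within 50 kb of the start (x axis), with the 7 genes named above their bar. Pou3f1 and Grhl2 stand in the right tail at 17, Zic2 in the left part at 2, and the other 4 genes lie between 5 and 11.

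At Pou3f1, 12 of the 17 sites were upstream, all in the intron of the antisense gene Gm2164, and the widest was 1137 bp, centred 42825 bp upstream. The central 300 bases of that site held no CpG, and 91.3% of them were C or T on the plus strand. At Grhl2, 10 of 17 were inside the gene, 9 of these in introns, and the widest was an intronic site of 730 bp centred 29631 bp from the start. Sox4 had 9 of its 11 sites on the downstream side, and its widest, of 836 bp, was 35245 bp upstream. At Otx2 the 5 upstream sites all lay in an intron of Otx2os1, the widest of 744 bp centred 27346 bp upstream. The Sall2 sites were narrower, up to 414 bp, and 3 of them, with the widest, lay within 1000 bp of the start of the noncoding Gm26328. Zic2 and Zic5 share their widest common site, of 873 bp (chr14:122433984-122434856), which overlaps an exon of Gm5089. Zic5 had another of 1023 bp near the edge of its window.

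The central 300 bases of the widest distal sites of Sox4 and Otx2 are shown because each held 3 copies of a motif. They run 5′ to 3′ on the plus strand of GRCm38, with the octamer ATGCAAAT or its reverse complement in capitals for Sox4 and the SOX core CTTTGT or its reverse complement in capitals for Otx2.
Sox4, distal site, chr13:28988809-28989108: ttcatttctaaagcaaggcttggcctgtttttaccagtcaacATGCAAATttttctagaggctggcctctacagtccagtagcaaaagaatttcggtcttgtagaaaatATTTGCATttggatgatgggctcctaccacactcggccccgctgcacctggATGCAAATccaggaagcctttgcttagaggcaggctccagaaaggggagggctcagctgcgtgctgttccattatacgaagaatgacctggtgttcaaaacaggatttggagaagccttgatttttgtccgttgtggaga
Otx2, distal site, chr14:48701016-48701315: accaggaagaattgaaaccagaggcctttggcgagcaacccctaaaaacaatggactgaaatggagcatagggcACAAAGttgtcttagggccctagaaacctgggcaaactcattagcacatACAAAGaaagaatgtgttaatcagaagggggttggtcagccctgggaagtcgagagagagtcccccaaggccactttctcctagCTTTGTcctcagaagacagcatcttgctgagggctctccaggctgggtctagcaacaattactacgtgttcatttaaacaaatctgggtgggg

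Of 137082 distal ATAC centres on the chromosomes, 4.13% held the octamer and 0.213% held it at least 3 times, and 25% held the SOX core and 0.583% at least 3 times. These 2 sites were picked for their motifs after the sequences were seen. Over all 65 distal centres near the 7 genes, 3 held the octamer, 16 the SOX core, 6 the OTX core, 17 the KLF core, 3 TATAAA, and none held the GRHL core or the ESRRB site. The shares over all distal centres were 10.2% for the OTX core, 17.1% for the KLF core, 13.1% for TATAAA, 3.08% for the GRHL core and 0.955% for the ESRRB site.

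H3K4me3 away from coding starts was present near all 7 genes, against 52.1% of all coding genes with such a peak within 50 kb. With peaks of −log10 q of at least 20, an alternative added after the data were seen, it was present near 5 of the 7, all but Sall2 and Grhl2, against 32.4%. Otx2, Pou3f1 and Grhl2 had 4 such peaks each, Zic2 and Zic5 shared 2, and Sall2 and Sox4 had 1 each. These 16 peaks had a median fold of 4.92, against 4.41 over all 16190 distal H3K4me3 peaks, and 12 of them overlapped an ATAC peak, as did 80.5% of all. The strongest was upstream of Sox4 (chr13:28957926-28960083), 2158 bp wide with a fold of 14.4, above 91.2% of distal H3K4me3 peaks. It stood 3567 bp from the Sox4 promoter peak and overlapped ATAC peaks of 1185 and 565 bp. At Pou3f1 the strongest was a peak of 1245 bp and fold 9.34 centred 15757 bp downstream, with 2 ATAC peaks. At Otx2 a peak of 2983 bp and fold 8.22 lay between genes, past the 3′ end of Otx2, with 3 ATAC peaks, the widest of 1284 bp. Another of 1509 bp and fold 6.77 lay 35799 bp upstream in an intron of Otx2os1. At Grhl2 a pair of weak peaks, 62 bp apart with folds of 3.36 and 5.28, lay in an intron of the gene at the start of the antisense Gm16137.

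Neighbouring coding genes within 50 kb differed in marking. Near Pou3f1, Utp11 and Fhl3 had folds of 30.1 and 43.2 at their starts, both above the Pou3f1 fold, while 3100002H09Rik had no peak. Near Sall2, the start of Mettl3 had a fold of 27 and the shared peak of Rab2b and Tox4 a fold of 41.9. The coding transcript starts of the olfactory receptor genes Olfr1513 and Olfr1512 within 50 kb had neither an H3K4me3 nor an ATAC peak within 1000 bp. Starts of these genes farther away were not examined. Otx2, Sox4 and Grhl2 had no coding neighbour start within 50 kb.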

How the data were processed

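Peaks of H3K4me3 ChIP-seq and ATAC-seq in F123 cells were used, each as 1 list pooled by the authors over 2 replicates. For ATAC-seq the authors aligned reads to mm10 with Bowtie 1.1.2, removed duplicate and mitochondrial reads, moved read ends by 4 bp, called peaks with MACS2 2.1.1.20160309, and with bedtools 2.27.1 retained those pooled peaks that each replicate also had. H3K4me3 peaks came from the ENCODE histone pipeline. Its aligner, threshold and use of the input are not given in the sources used here. The deposited H3K4me3 columns hold positions, a fold enrichment (ratio over background), −log10 q and summits. The deposited ATAC columns hold positions only, so the strength of an ATAC peak is unknown. No depth or replicate error can be had, and PLAC-seq samples were not analysed here. On chromosomes no peak passed the end of the GRCm38 sequence, and 38 and 387 peaks lay on other scaffolds.

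Starts were the 5′ ends of GENCODE M21 gene records. Overlap meant at least 1 bp. Alternatives changed windows, gaps, starts and peak filters. The lookups were tested on simulated data against bedtools 2.31.1. Python 3.11.15, numpy 2.4.6, pandas 2.3.3 and matplotlib 3.10.9 were used. The members and the gene lists were chosen with earlier results of these data known. Named were all 7 members, the narrowest, widest and unmarked genes of each list, coding neighbours within 50 kb, and the 5 genes most like each of 2 members. A result of 1 listed gene is not reported here.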

Additional observations from a re-analysis of the deposited data

How the results depend on the processing

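No paired analysis was possible because the replicates of each assay were merged into 1 peak list, and for the same reason no replicate could be left out. Of 45 alternative values, 22 stayed equal or, for counts, within 1.5 times. The 7 genes with H3K4me3 at the start stayed 7 in all 4 alternatives, against 61.1% to 68% of all coding genes. Those with an ATAC peak were 5 where the peak had to cover the start, against 62.5%. In the other alternatives they were 7, against 67% and 76.2%. Broad domains were 4 with the starts of all coding transcripts and with gaps of up to 2000 bp, against 6.45% and 9.41% of marked coding genes. They were 3 with gaps of up to 500 bp and by the widest single peak, against 4.78% and 2.96%. With the starts of all coding transcripts, 2 genes had fragmented domains in place of 1, against 15.6% of marked coding genes. The median width then rose to 5413 bp (percentile 95), and the median fold was 36.7 (percentile 66.2). Gaps of up to 2000 bp also gave 2 fragmented domains and 5413 bp (percentile 92.4), and gaps of up to 500 bp percentile 95. The width percentile was 96.9 for the widest single peak and 93.4 among autosomal genes. With the Zic pair counted once, the median width was 4301.5 bp (percentile 88.7) without Zic2 and 4543 bp (percentile 89.6) without Zic5. The width-weighted mean fold had a median of 27.3 (percentile 43.1), against 29.9 over all marked genes, and −log10 q a median percentile of 47, so that the fold of the 7 genes lay above or below the middle of all genes by the measure used. Distal ATAC peaks per gene had medians of 5 within 25 kb, 15 within 100 kb and 4 among the widest 50% of ATAC peaks, against 3, 14 and 2 over all coding genes. With ATAC peaks joined across short gaps, the median was 6 for the 7 genes and 6 over all coding genes. The small excess of the main setting was thus absent when neighbouring ATAC peaks were joined. Distal H3K4me3 peaks per gene had medians of 4 within 100 kb and 1 at a −log10 q of at least 20. Over all coding genes these medians were 1 and 0. The main setting gave 2 for the 7 genes and 1 over all coding genes. Depth is unknown, so a site that is not listed was not detected and may still be open or marked.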
